A study of Homo sapiens with 9 samples.

Results

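The genes described are the protein-coding members of the mitochondrial carrier family in OVCAR3 cells, a line of high-grade serous ovarian carcinoma. Members were all protein-coding genes with a symbol of SLC25A and a digit, together with UCP2, UCP3, MTCH1, MTCH2, MPC1 and MPC2. They came to 54 of the 60660 genes in the count matrix, 48 of them named SLC25A. Poly(A) RNA was sequenced from 3 groups of 3 biological replicates, each made by pooling 3 technical replicates. Control cells received a LacZ plasmid. CTCFL-OE cells received a plasmid that expresses CTCFL (BORIS), the germline paralog of CTCF. Both transfections used 2 µg of plasmid, and the cells were collected after 48 hours. CTCFL-KD cells had CTCFL lowered by siRNA, and their RNA came from an earlier experiment. No control siRNA group was analysed here, so both comparisons use the same Control libraries, and for CTCFL-KD the siRNA, the experiment and the group cannot be told apart. All cells grew in medium with 20% fetal bovine serum.

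Mitochondrial carriers are small proteins of the inner membrane that exchange metabolites between the cytosol and the matrix, such as ADP for ATP, phosphate, citrate, aspartate and glutamate. Each is built from repeats of a pair of membrane helices, switches between a state open to the cytosol and one open to the matrix, and is encoded in the nucleus and imported after translation. A few relatives sit in other membranes, and the mitochondrial pyruvate carrier, a pair of small subunits, belongs to an unrelated family. In carcinoma cells these carriers feed respiration, the malate-aspartate shuttle, fatty acid synthesis from exported citrate, and the one-carbon and heme pathways.

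The libraries held between 14332622 and 24490080 counts. The CTCFL-KD libraries had 14332622, 16605777 and 17995196 counts, the first of which was the lowest of all. Carrier genes made up 0.285%, 0.272% and 0.281% of counts in Control, with 0.304%, 0.256% and 0.215% for CTCFL-OE and with 0.239%, 0.223% and 0.236% for CTCFL-KD. Mitochondrially encoded transcripts took 6.52%, 6.31% and 6.16% of counts in Control, with 7.40%, 12.4% and 14.9% for CTCFL-OE and with 11.8%, 9.64% and 7.80% for CTCFL-KD. Their part in the results was not tested. CTCFL-KD replicate 1 stood apart: against the other libraries of its group, its shortest genes were higher (median log2 ratio 0.59 in the shortest quintile) and its longest were lower (-0.54 in the longest quintile). Carrier results are therefore also given without that library where it decides them. Markers and genes of other lists are given only with it. Control replicate 1 leaned the same way within its group, less strongly (0.052 in the shortest quintile and -0.056 in the longest). For CTCFL-KD against Control, the median log2 fold change was 0.23 in the shortest quintile and -0.06 in the longest.

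CTCFL itself followed the labels. Its raw counts were 6, 9 and 10 in Control, with 36, 34 and 72 for CTCFL-OE and with 0, 1 and 0 for CTCFL-KD, so that the 3 groups did not overlap. In edgeR's quasi-likelihood test CTCFL was higher in CTCFL-OE by a log2 fold change of 2.73 ± 0.48 (SE; Benjamini-Hochberg adjusted p = 0.0286). It was lower in CTCFL-KD, with a log2 fold change of -3.78 ± 1.06 (adjusted p = 0.0163), a fitted value that rests on 1 count in that group. The first call was lost without any 1 of the Control libraries (adjusted p = 0.168, 0.176 and 0.125 without replicates 1, 2 and 3), and the second without CTCFL-KD replicate 3 (adjusted p = 0.0552). The paralog CTCF had adjusted p = 0.535 in CTCFL-OE and 0.0567 in CTCFL-KD.

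Of the OVCAR3 markers, all 10 were detected. In CTCFL-KD 8 of the 10 passed the adjusted p, where 38.3% of all genes did. Of these 6 were higher (21.4% of all genes were) and 2 lower (16.9% of all genes were). The most abundant in Control was KRT8. Among the others, MUC16 was at a mean of 1593 CPM (counts scaled to the library size, corrected by TMM) against 222 in Control. KRT7 was at 670 against 1451, with 1077, 470 and 463 in CTCFL-KD replicates 1, 2 and 3. The summed level of the markers was 5249, 5340 and 5240 CPM in Control, with 4973, 4769 and 4487 CPM for CTCFL-OE and with 14895, 9394 and 8857 CPM for CTCFL-KD. Markers of other cells were low. The adipocyte and muscle list summed to at most 0.889 CPM, with none of its 6 genes tested and ADIPOQ at 0 throughout. The fibroblast list summed to between 24.9 and 44.05 CPM, mostly COL1A1. In CTCFL-KD COL1A1 lay below Control, at 26.1, 22.4 and 21.3 CPM against 32.0, 30.9 and 26.4. It did not pass (-0.36, adjusted p = 0.222), nor did FAP (-0.05). COL1A2 was at 0 in all Control libraries and at a mean of 13.9 CPM in CTCFL-KD, where COL3A1 had 8, 9 and 8 counts, against 0 in the other groups, and DCN a mean of 0.0793 CPM. Of the endothelial list, KDR was higher and PECAM1 lower in CTCFL-KD, and VWF was higher in CTCFL-OE (log2 fold change 0.71, adjusted p = 0.0943). In bulk RNA, fewer cells of a type and less RNA per cell cannot be told apart. The part of these markers in the carrier results was not tested.

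Of the 54 members, 51 had enough counts to be tested among 17742 genes. SLC25A31, the germ cell ADP/ATP carrier, SLC25A2, an ornithine carrier, and SLC25A47 did not. Levels between genes are compared per length, in TPM over the canonical transcript. In Control the highest was SLC25A5 at 593 ± 20.3 TPM (SD, n = 3), the ADP/ATP carrier ANT2 of proliferating cells. It was followed by SLC25A39, a glutathione carrier, at 293 ± 16.8 TPM and SLC25A6, the ADP/ATP carrier ANT3, at 261 ± 13.2 TPM. The phosphate carrier SLC25A3 had 142 ± 1.62 TPM and the citrate carrier SLC25A1 136 ± 5.81 TPM, which differ by about their spread. These 5 genes held 60.05% of the family's Control TPM. With lengths over all annotated exons, which were used first, the highest 5 held 65.2%, and MTCH1 ranked 17 in place of 6. With those lengths SLC25A6 (374 TPM) ranked above SLC25A39 (201 TPM), and SLC25A1 (161 TPM) above SLC25A3 (146 TPM).

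In CTCFL-OE no member passed the adjusted p of 0.1, where 3.2% of all tested genes did, and so none was a differentially expressed gene (DEG, also beyond a log2 fold change of 1). At an unadjusted p under 0.05 edgeR counted 6 of 51, where 17.8% of all genes passed. These were SLC25A24 (log2 fold change -0.70), SLC25A30 (-0.69) and SLC25A13 (-0.43), with negative values, and SLC25A37 (0.46), SLC25A29 (0.48) and SLC25A27 (0.995), with positive ones. The CTCFL-OE libraries lay wholly above Control for 7 members and wholly below for 10, together 17 of 51, where 37.1% of all genes were apart. The median log2 fold change was -0.02 over the members and -0.01 over all genes. The count of 0 depends on the test: DESeq2 called 3 of 51 members on all 9 libraries (8.59% of all genes) and 8 of 50 on the 2 groups (23.6% of all genes), and edgeR called 7 of 50 on the 2 groups (20.1% of all genes). Without CTCFL-KD replicate 1, which is not in this comparison but shares its estimate of the spread, 8 of 51 were called, where 27.4% of all genes were. Without CTCFL-OE replicate 1 the count was 6 (15.1% of all genes) and without CTCFL-KD replicate 2 it was 1 (2.41% of all genes), and each of these 2 settings had 1 DEG.

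In CTCFL-KD 11 of 51 members (21.6%) passed the adjusted p of 0.05, where 38.3% of all genes did. They were 3 higher (21.4% of all genes were) and 8 lower (16.9% of all genes were). DEGs were 4 of 51 (7.84%), where 23.2% of all genes were DEGs: SLC25A24 and SLC25A34 lower, SLC25A29 and SLC25A48 higher. The CTCFL-KD libraries lay wholly above Control for 9 members and wholly below for 14, where 56.3% of all genes were apart. The median log2 fold change was -0.06 over the members and 0.08 over all genes. The 40 members that did not pass ranged from -0.53 (UCP2) to 0.71 (SLC25A10). Without CTCFL-KD replicate 1 the count was 20, with all 11 among them, where 49.9% of all genes were called. Without Control replicates 1, 2 and 3 it was 7, 7 and 6, where 26.8%, 26.7% and 25.8% of all genes were called. The DEG count was 7 with the trend along the length of all exons removed (23.2% of all genes) and 4 with the canonical transcript as length (23.1% of all genes), a version added after seeing the data.

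**Figure D1:**
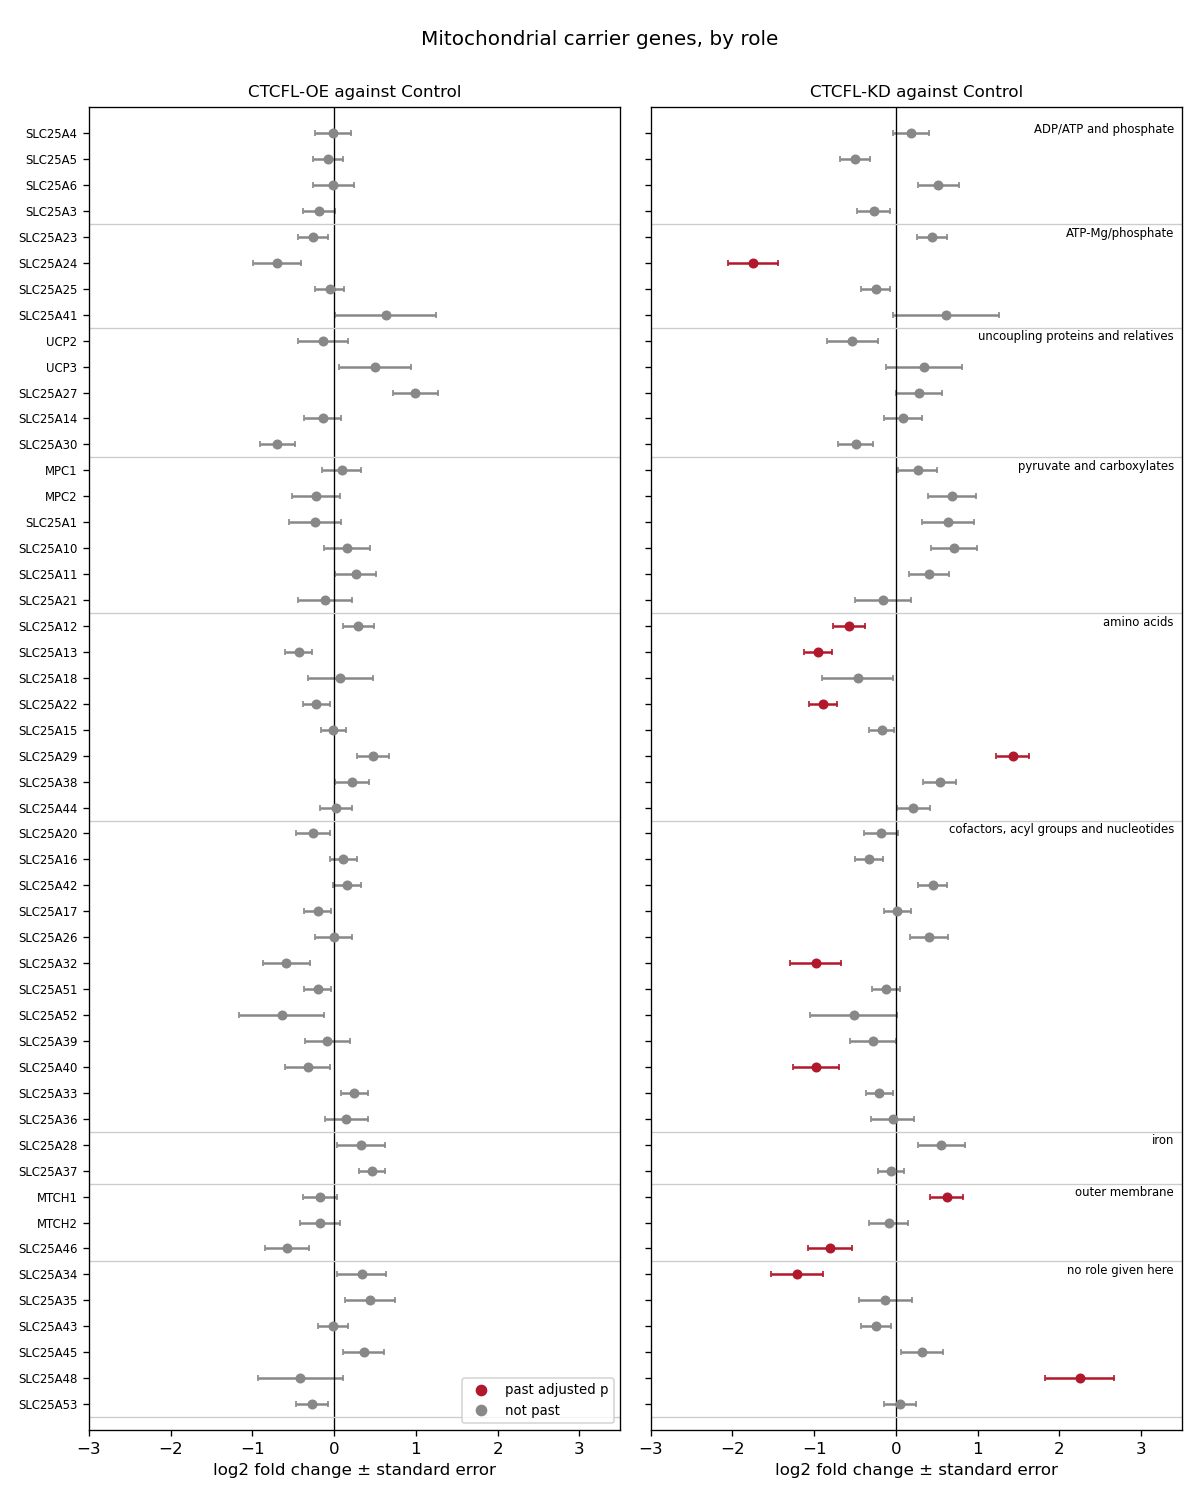
Log2 fold change (horizontal axis, with its standard error) of 50 of the 51 tested carrier genes (vertical axis, grouped by role) in CTCFL-OE and CTCFL-KD, each against Control. Red points passed the adjusted p: none of them in CTCFL-OE and 11 in CTCFL-KD, 8 lower and 3 higher.

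The ADP/ATP and phosphate carriers supply the ATP synthase and export its product. None of the 4 tested passed in either comparison, where 3.2% of all genes did in CTCFL-OE and 38.3% in CTCFL-KD. SLC25A5 was at 385, 400 and 393 CPM in Control, with 439, 357 and 321 for CTCFL-OE and with 305, 257 and 273 for CTCFL-KD. All CTCFL-KD libraries were below all Control libraries, with a log2 fold change of -0.50 ± 0.19 that missed the threshold (adjusted p = 0.0540). It passed without CTCFL-KD replicate 1 (adjusted p = 0.00865), CTCFL-OE replicate 1 (0.0261) or CTCFL-OE replicate 3 (0.0382), and in 12 of 23 alternatives in all. SLC25A6 was at 198, 179 and 199 CPM in Control, with 239, 171 and 162 for CTCFL-OE and with 383, 218 and 223 for CTCFL-KD. Here all CTCFL-KD libraries were above Control, replicate 1 far above the other 2, and the log2 fold change of 0.52 ± 0.25 did not pass (adjusted p = 0.126). Without replicate 1 it was 0.20 (adjusted p = 0.312). SLC25A6 lies in the pseudoautosomal region, and its matrix row was repeated for the Y copy with equal counts in 9 of 9 libraries, which was left out.

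As a share of the per-length level of the ADP/ATP carriers, SLC25A5 made up 67.3%, 70.3% and 67.7% in Control, with 66.3%, 68.6% and 67.7% for CTCFL-OE and with 46.0%, 55.7% and 56.8% for CTCFL-KD. SLC25A6 made up 31.2%, 28.3% and 30.9% in Control, with 32.4%, 29.7% and 30.8% for CTCFL-OE and with 52.0%, 42.7% and 41.7% for CTCFL-KD. The CTCFL-KD shares did not overlap those of the other groups. They were not tested and were not among the planned results. Over all annotated exons the mean share of SLC25A5 was 66.1% in Control and 50.2% in CTCFL-KD. SLC25A4, the heart and muscle form ANT1, was at 29.2, 26.5 and 27.5 CPM in Control, with 28.2, 29.4 and 24.7 for CTCFL-OE and with 44.2, 25.8 and 24.9 for CTCFL-KD, so that only replicate 1 of CTCFL-KD was high (0.19, and -0.13 without it). The germ cell form SLC25A31 had 1 count in 1 Control library and 0 in the other 8 libraries. SLC25A3 was at 432, 429 and 429 CPM in Control, with 429, 381 and 327 for CTCFL-OE and with 430, 306 and 332 for CTCFL-KD, with overlapping groups in both comparisons. In CTCFL-KD it had -0.27 (adjusted p = 0.293), and it passed without replicate 1 (-0.43, adjusted p = 0.0236).

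**Figure D2:**
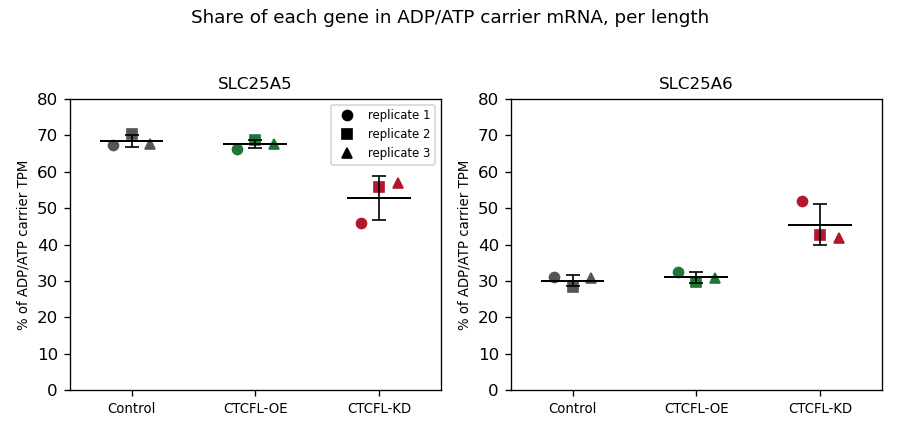
Share (%, vertical axis) of SLC25A5 and SLC25A6 in the summed TPM of the 4 ADP/ATP carrier genes, one point per library, with lines for the mean and bars for the SD of 3 libraries. SLC25A5 held 67.3% to 70.3% in Control and 46.0% to 56.8% in CTCFL-KD.

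The ATP-Mg/phosphate carriers adjust the adenine nucleotide pool of the matrix in answer to cytosolic calcium. Of 4 tested, 1 fell in CTCFL-KD, where 16.9% of all genes did, and none passed in CTCFL-OE (3.2% of all genes did). SLC25A24 (chr1:108134043-108200849) was at 68.0, 66.4 and 72.6 CPM in Control, with 46.5, 37.8 and 43.3 for CTCFL-OE and with 9.93, 24.3 and 27.0 for CTCFL-KD. The 3 groups did not overlap, and CTCFL-KD replicate 1 was the lowest library. It was 3.36-fold lower in CTCFL-KD (log2 fold change -1.75 ± 0.30, adjusted p = 0.00131) and still lower without replicate 1 (-1.42). In CTCFL-OE its value was also negative, -0.70 ± 0.29, and did not pass (adjusted p = 0.249), though it did in 6 of 23 alternatives. The direct test of CTCFL-KD against CTCFL-OE gave -1.05 (adjusted p = 0.0245) and held in 18 of 23 alternatives, not without CTCFL-OE replicate 1 or 3 nor on the 2 groups in edgeR, with a block (adjusted p = 0.0954) or without. Its paralog SLC25A23 had a positive value in CTCFL-KD, 0.44 (adjusted p = 0.0786), SLC25A25 had -0.25, and -0.11 without replicate 1, and SLC25A41, which lacks the calcium-binding domain, was under 2 CPM in every library. SLC25A25 (2575 counts in all libraries) shares exon positions with SLC25A25-AS1 (1755 counts) and NAIF1 (916 counts) on the other strand. Strand use in counting was not stated, so its counts are uncertain.

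The uncoupling proteins and their relatives conduct protons or exchange small anions. None of 5 passed in either comparison, where 3.2% of all genes did in CTCFL-OE and 38.3% in CTCFL-KD. UCP2 was at 81.8, 75.6 and 78.1 CPM in Control, with 94.8, 66.5 and 52.4 for CTCFL-OE and with 84.4, 40.0 and 38.9 for CTCFL-KD. Its CTCFL-KD libraries split, with replicate 1 just above Control and the others at about 40 CPM. The log2 fold change was -0.53 (adjusted p = 0.197) with replicate 1 and -0.99 (adjusted p = 0.00267) without it. SLC25A27 (UCP4) had the largest positive value of any member in CTCFL-OE, 0.995 (adjusted p = 0.109), with all 3 libraries above Control, and passed the threshold in 13 of 23 alternatives. SLC25A30 (KMCP1) had negative values in CTCFL-OE (-0.69, past the threshold in 9 of 23 alternatives) and CTCFL-KD (-0.49, and -0.31 without replicate 1). SLC25A30 (1686 counts in all libraries) shares exon positions with TPT1-AS1 (4930 counts) and SLC25A30-AS1 (9 counts) on the other strand. Since strand use in counting was not stated, its counts are uncertain. UCP3 and SLC25A14 (UCP5) had 0.34 and 0.09 in CTCFL-KD, and 0.63 and -0.22 without replicate 1.

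The pyruvate and carboxylate carriers link glycolysis, the citric acid cycle and lipid synthesis. None of 6 passed against Control, where 3.2% of all genes did in CTCFL-OE and 38.3% in CTCFL-KD. Of the 6, 5 had positive values in CTCFL-KD (group median 0.52). Without CTCFL-KD replicate 1 all 6 values lay between -0.10 and 0.24. The citrate carrier SLC25A1 was at 107, 101 and 111 CPM in Control, with 97.2, 90.0 and 83.4 for CTCFL-OE and with 278, 105 and 114 for CTCFL-KD. Replicate 1 alone was high: the log2 fold change was 0.64 (adjusted p = 0.138) with it and 0.05 (adjusted p = 0.742) without it. Without CTCFL-KD replicate 2 SLC25A1 passed (adjusted p = 0.0460). MPC2 was at 11.6, 8.90 and 9.42 CPM in Control, with 10.1, 7.11 and 8.37 for CTCFL-OE and with 24.9, 10.6 and 12.9 for CTCFL-KD, again with replicate 1 highest. It did not pass against Control (0.69, adjusted p = 0.0908). It did with the replicate number as a block on 9 libraries (adjusted p = 0.0496), but not with it on the 2 groups (0.0934). Without CTCFL-KD replicate 2 it also passed. MPC2 was higher in CTCFL-KD than in CTCFL-OE (0.91, adjusted p = 0.0454, and without replicate 1, 0.46 and adjusted p = 0.0692). Its partner MPC1 was at 7.06, 6.72 and 5.52 CPM in Control, with 8.90, 5.75 and 5.91 for CTCFL-OE and with 9.48, 6.13 and 7.78 for CTCFL-KD, with overlapping groups (0.27, and 0.12 without replicate 1). SLC25A10, SLC25A11 and SLC25A21 had values of 0.71, 0.40 and -0.16, and of 0.24, 0.04 and -0.10 without replicate 1. Of these, SLC25A10 passed without CTCFL-KD replicate 2 or 3. MPC2 shares exon positions with DCAF6 and SLC25A11 with RNF167, each on the other strand, and both are uncertain for that reason. SLC25A21, with 127 counts in all libraries, shares them with PAX9 (400 counts) and SLC25A21-AS1 (218 counts) and is uncertain too.

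Of the 8 amino acid carriers tested, 4 passed in CTCFL-KD, where 38.3% of all genes did: SLC25A12, SLC25A13 and SLC25A22 fell and SLC25A29 rose. SLC25A13 (citrin) and SLC25A12 (aralar) export aspartate in exchange for glutamate as a step of the malate-aspartate shuttle. SLC25A13 (chr7:96120220-96322147) was at 111, 102 and 116 CPM in Control, with 90.0, 76.0 and 77.8 for CTCFL-OE and with 48.1, 61.3 and 60.7 for CTCFL-KD. Its 3 groups did not overlap, in the order Control, CTCFL-OE, CTCFL-KD. It was 1.93-fold lower in CTCFL-KD (-0.95 ± 0.17, adjusted p = 0.00147), a call that held in 23 of 23 alternatives, while its value in CTCFL-OE of -0.43 did not pass (adjusted p = 0.213) but did in 6 of 23. SLC25A12 was at 32.7, 33.2 and 32.7 CPM in Control, with 44.9, 40.9 and 35.2 for CTCFL-OE and with 16.6, 25.6 and 23.9 for CTCFL-KD. CTCFL-KD was below Control and CTCFL-OE above it. It was lower in CTCFL-KD by 1.49-fold (-0.57 ± 0.19, adjusted p = 0.0360), but not with the replicate number as a block on 9 libraries (adjusted p = 0.0525), nor in edgeR on the 2 groups, with a block (0.0680) or without, and lower than in CTCFL-OE (-0.87, adjusted p = 0.00731). The call against Control was also lost without Control replicates 1, 2 and 3 (adjusted p = 0.0894, 0.0964 and 0.0921), CTCFL-OE replicate 2 (0.0524) or CTCFL-KD replicate 3 (0.0513), and held in 15 of 23 alternatives. In CTCFL-OE SLC25A12 had 0.30 (adjusted p = 0.438) and passed in 3 of 23 alternatives.

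The glutamate carrier SLC25A22 was at 49.7, 43.3 and 43.5 CPM in Control, with 38.5, 42.6 and 36.2 for CTCFL-OE and with 28.1, 24.1 and 21.6 for CTCFL-KD. All CTCFL-KD libraries were below the others, 1.85-fold lower than Control (-0.89 ± 0.17, adjusted p = 0.00206). SLC25A29, a carrier of basic amino acids (chr14:100291116-100306547), was at 20.7, 20.4 and 18.1 CPM in Control, with 21.3, 34.3 and 26.9 for CTCFL-OE and with 52.3, 59.9 and 47.2 for CTCFL-KD. It was 2.69-fold higher in CTCFL-KD (1.43 ± 0.20, adjusted p = 0.00038) and higher than in CTCFL-OE (0.95, adjusted p = 0.00544), with no overlap of the groups. The CTCFL-KD calls of SLC25A22 and SLC25A29 against Control held in 23 of 23 alternatives. In CTCFL-OE SLC25A29 had 0.48 (adjusted p = 0.244), with all libraries above Control, and passed in 6 of 23 alternatives. The glycine carrier SLC25A38, which serves heme synthesis, had 0.54 (adjusted p = 0.0585), and 0.29 without CTCFL-KD replicate 1. SLC25A15, SLC25A18 and SLC25A44 had values of -0.17, -0.47 and 0.22, and of -0.10, -0.90 and 0.41 without that library, where SLC25A44 passed (adjusted p = 0.0108).

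**Figure D3:**
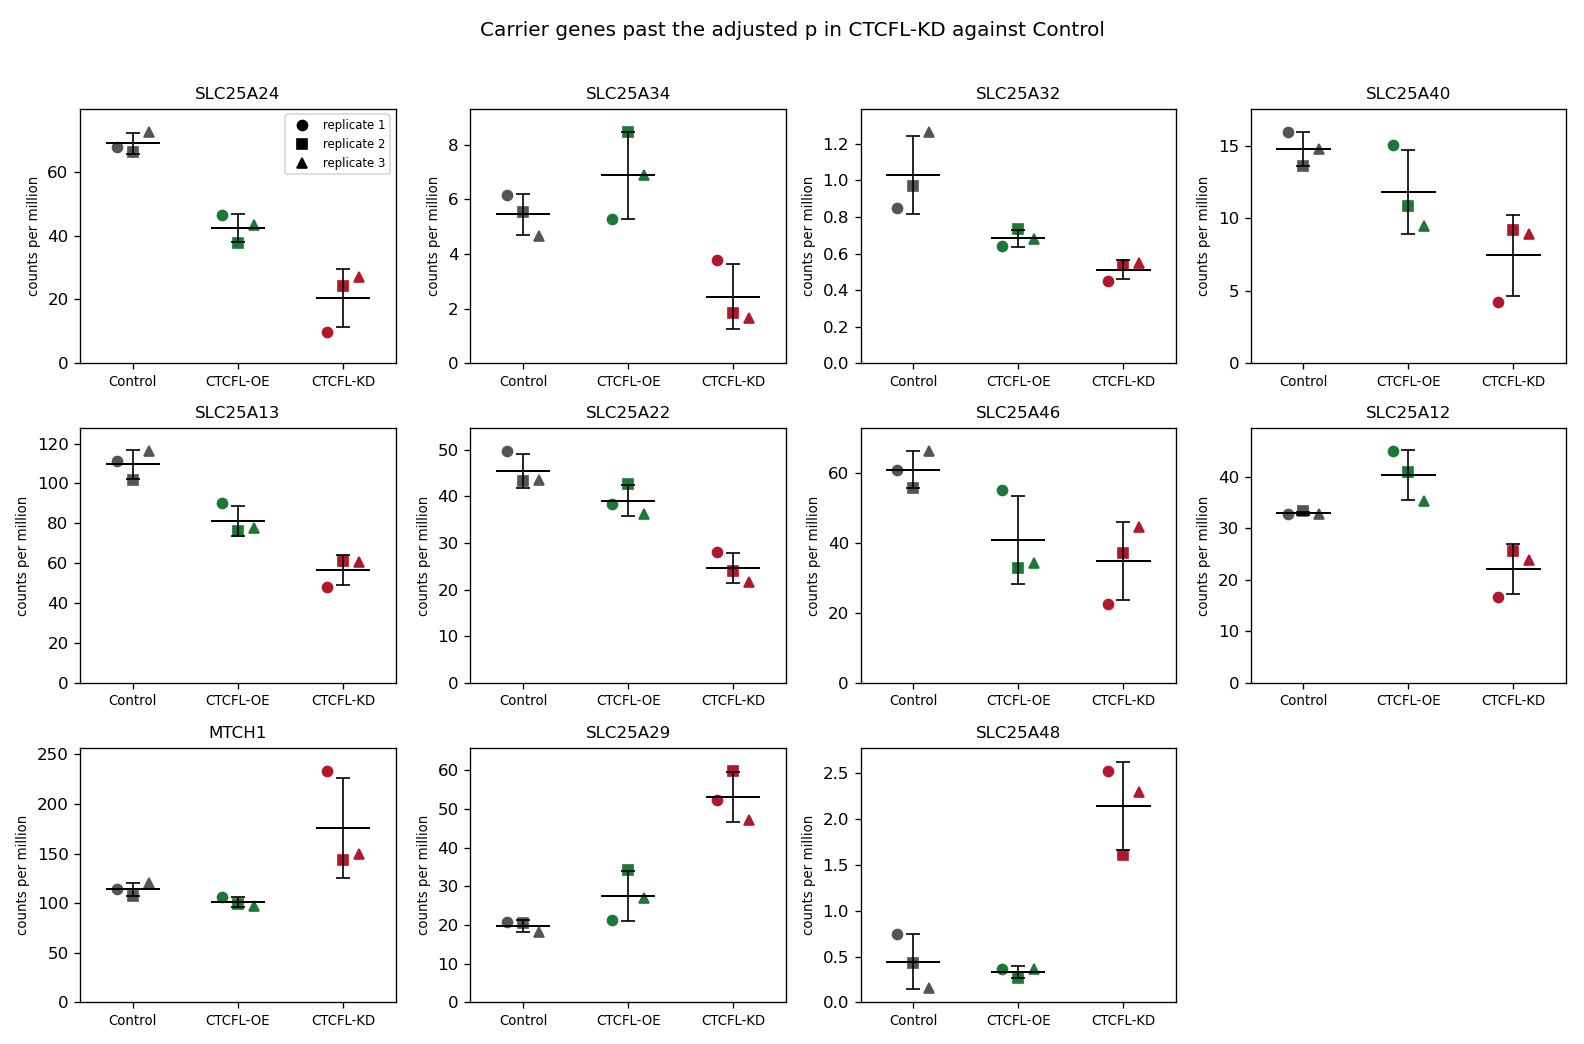
TMM-scaled CPM (vertical axis, from 0) of the 11 carrier genes past the adjusted p in CTCFL-KD against Control, one point per library, with lines for the mean and bars for the SD of 3 libraries. In CTCFL-KD SLC25A24 lies at 9.93 to 27.0 CPM against 66.4 to 72.6 in Control, and SLC25A29 at 47.2 to 59.9 against 18.1 to 20.7.

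Of the 13 carriers of cofactors, acyl groups and nucleotides, 2 fell in CTCFL-KD, where 16.9% of all genes did, and none rose. SLC25A40, a glutathione carrier, was at 16.0, 13.6 and 14.8 CPM in Control, with 15.1, 10.9 and 9.47 for CTCFL-OE and with 4.24, 9.16 and 8.93 for CTCFL-KD. It was 1.96-fold lower in CTCFL-KD (-0.97 ± 0.28, adjusted p = 0.0189), with replicate 1 lowest, and did not pass without Control replicate 1 or 3 (adjusted p = 0.0605 and 0.0517). SLC25A32, a carrier of folate and FAD, was at 0.852, 0.972 and 1.27 CPM in Control and 0.451, 0.535 and 0.548 in CTCFL-KD (-0.98 ± 0.31, adjusted p = 0.0275). It had 130 counts in all 9 libraries, where DCAF13, which shares exon positions with it on the other strand, had 24896, so its level is uncertain. Neither DESeq2 fit nor the block on 2 groups (adjusted p = 0.0677) called SLC25A32, and it was lost without Control replicates 2 and 3 (0.0658 and 0.118) and CTCFL-KD replicates 2 and 3 (0.0683 and 0.0633). SLC25A40 shares positions with DBF4 in the same way. The carnitine/acylcarnitine carrier SLC25A20 was at 13.3, 14.3 and 14.6 CPM in Control, with 11.5, 10.8 and 13.0 for CTCFL-OE and with 16.6, 10.1 and 10.7 for CTCFL-KD. Its CTCFL-KD libraries lay on both sides of Control (-0.18, adjusted p = 0.509), and it passed without replicate 1 (-0.44, adjusted p = 0.0191). The abundant glutathione carrier SLC25A39 had -0.28 (adjusted p = 0.450) and, without CTCFL-KD replicate 1, -0.74 (adjusted p = 0.000475). The NAD carriers SLC25A51 and SLC25A52 are near-identical and their counts may be shared; their values were -0.12 and -0.51, and -0.10 and -0.30 without replicate 1. The other 7 genes had values between -0.33 and 0.45, and between -0.25 and 0.51 without replicate 1, where SLC25A42 was among those that passed (adjusted p = 0.0152). One of the 7 is SLC25A26, which shares exon positions with LRIG1.

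The iron carriers, mitoferrins SLC25A28 and SLC25A37, did not pass against Control in either comparison (3.2% of all genes did in CTCFL-OE, 38.3% in CTCFL-KD). In CTCFL-KD SLC25A28 had 0.56, and 0.12 without replicate 1, and it passed without replicate 3 (adjusted p = 0.0325). In CTCFL-OE SLC25A37 passed in 8 of 23 alternatives. It was lower in CTCFL-KD than in CTCFL-OE (-0.52, adjusted p = 0.0327), with its CTCFL-OE libraries above Control, a call that held in 12 of 23 alternatives. Of the 3 outer membrane relatives, 1 rose and 1 fell in CTCFL-KD, where 38.3% of all genes passed. MTCH1 was at 115, 107 and 120 CPM in Control, with 107, 99.6 and 96.7 for CTCFL-OE and with 234, 143 and 150 for CTCFL-KD. It was higher in CTCFL-KD (0.62 ± 0.21, adjusted p = 0.0344) with replicate 1 highest, and by 0.36 (adjusted p = 0.0148) without that library. It did not pass in edgeR on the 2 groups, with a block (adjusted p = 0.0799) or without, nor with the trend along the length of all exons removed (adjusted p = 0.0501), and held in 14 of 23 alternatives. It was also lost without Control replicates 1, 2 and 3 (adjusted p = 0.105, 0.129 and 0.0888) or CTCFL-OE replicate 2 (0.0580). SLC25A46, which acts in mitochondrial dynamics, was at 60.8, 55.7 and 66.1 CPM in Control, with 55.2, 32.7 and 34.3 for CTCFL-OE and with 22.5, 37.2 and 44.5 for CTCFL-KD. It was lower in CTCFL-KD (-0.81 ± 0.27, adjusted p = 0.0376), but not with a block on 9 libraries (adjusted p = 0.0521). Without Control replicates 1, 2 and 3 it had adjusted p = 0.0842, 0.0664 and 0.108, and without CTCFL-KD replicate 2, 0.0690. In CTCFL-OE SLC25A46 had -0.58 (adjusted p = 0.294) and passed in 5 of 23 alternatives. The insertase MTCH2 was at 117, 109 and 117 CPM in Control, with 117, 93.8 and 93.5 for CTCFL-OE and with 156, 82.5 and 84.8 for CTCFL-KD, where replicate 1 was above Control and the others below. Its value in CTCFL-KD was -0.09 (adjusted p = 0.795), and it passed without replicate 1 (-0.45, adjusted p = 0.0117).

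Of 6 tested members for which no role is given here, 2 were DEGs in CTCFL-KD, where 23.2% of all genes were. SLC25A34 (chr1:15736258-15741392) was at 6.16, 5.52 and 4.66 CPM in Control, with 5.29, 8.47 and 6.89 for CTCFL-OE and with 3.79, 1.84 and 1.64 for CTCFL-KD. All CTCFL-KD libraries were below the others (-1.21 ± 0.32, adjusted p = 0.0132; against CTCFL-OE -1.54, adjusted p = 0.00546). SLC25A48 (chr5:135476913-135889770) was at 0.751, 0.427 and 0.152 CPM in Control, with 0.365, 0.262 and 0.369 for CTCFL-OE and with 2.53, 1.61 and 2.30 for CTCFL-KD. It was higher in CTCFL-KD (2.25 ± 0.43, adjusted p = 0.00223) at a low level of 27 to 42 counts per library. The folds were 2.31 down for SLC25A34 and 4.75 up for SLC25A48. Both share exon positions with genes on the other strand, of at most 34 and 10 counts in a library, so a part of their counts is uncertain. SLC25A35, SLC25A43, SLC25A45 and SLC25A53 had values between -0.24 and 0.32, and between -0.50 and 0.52 without CTCFL-KD replicate 1. SLC25A35 (267 counts in all libraries) shares exon positions with RANGRF (185 counts) on the other strand and is uncertain too.

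**Figure D4:**
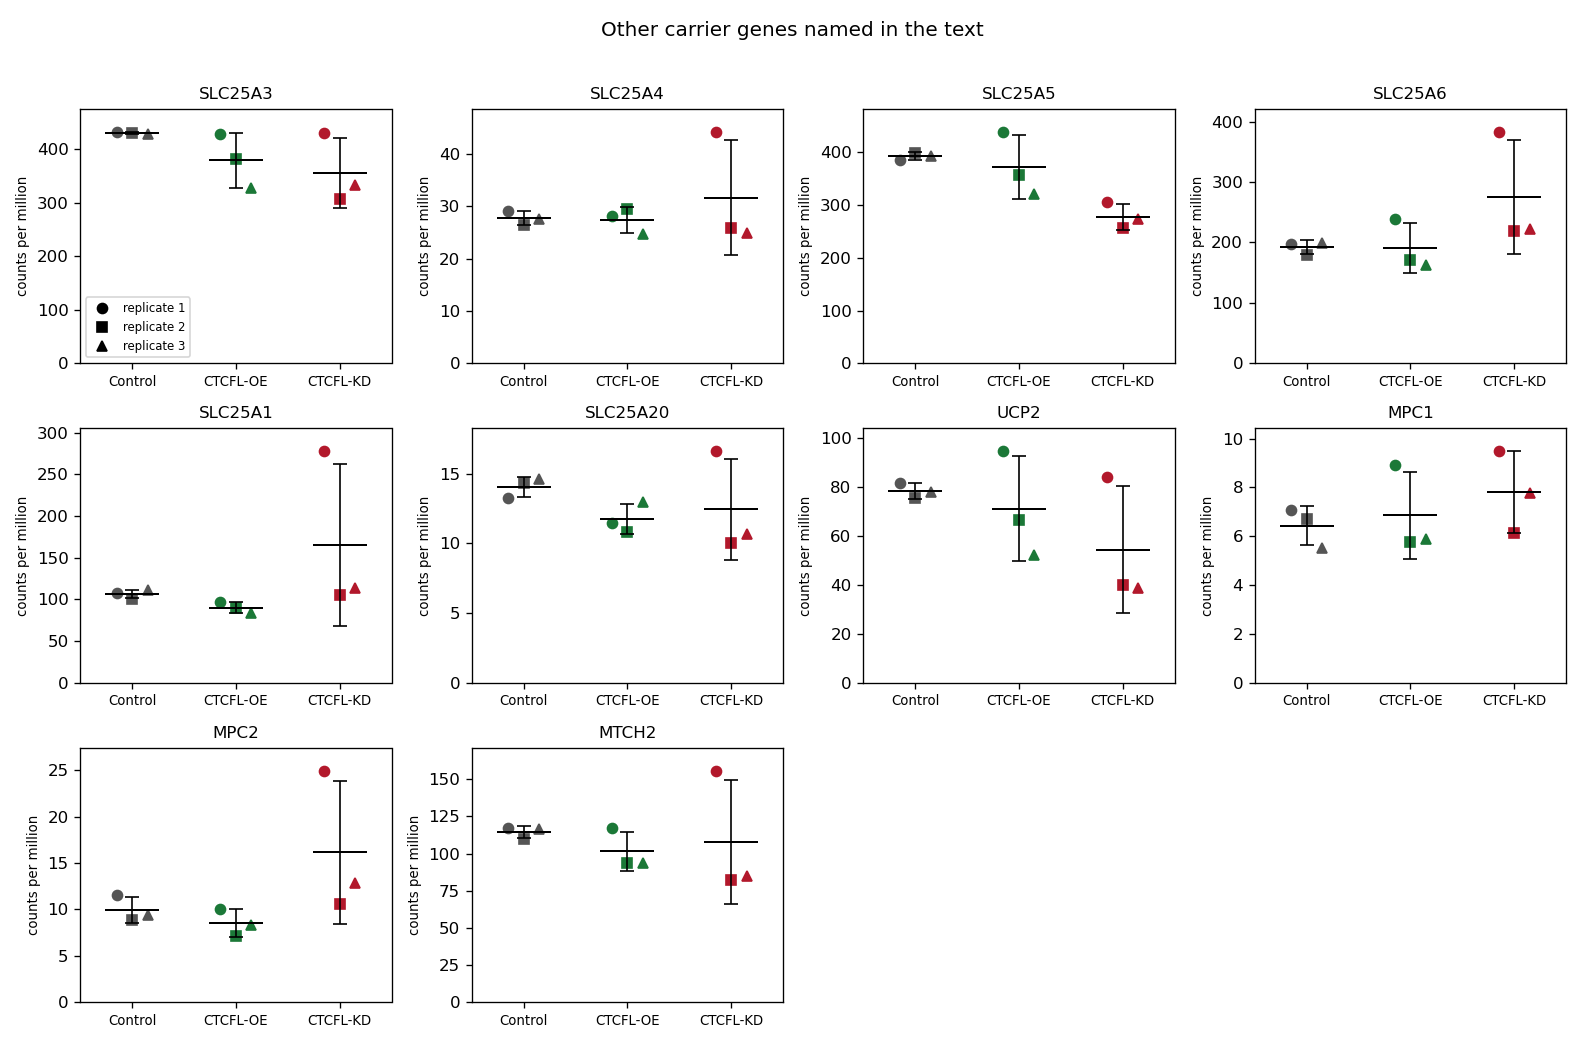
TMM-scaled CPM (vertical axis, from 0) of 10 other carrier genes, one point per library, with lines for the mean and bars for the SD of 3 libraries. None passed the adjusted p against Control. In SLC25A1 CTCFL-KD replicate 1 lies at 278 CPM and the other 2 at 105 and 114.

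In the direct test of CTCFL-KD against CTCFL-OE, 11 of 51 members (21.6%) passed, where 26.9% of all genes did. SLC25A12, SLC25A13, SLC25A22, SLC25A24, SLC25A34 and SLC25A37 were lower (6, where 11.6% of all genes were), and SLC25A23, SLC25A29, SLC25A48, MPC2 and MTCH1 were higher (5, where 15.3% of all genes were). Of these calls, those of SLC25A29 and SLC25A48 held in all alternatives that tested them, SLC25A34 in 22 of 23, SLC25A12 in 21, SLC25A22 and MTCH1 in 19, SLC25A24 in 18 and SLC25A23 in 17. Those of SLC25A37 (12), MPC2 (11) and SLC25A13 (9) were lost in about as many or more, the last in 8 of 9 leave-outs and with a block on 9 libraries (adjusted p = 0.0660). The count was 17 without CTCFL-KD replicate 1 (39.7% of all genes), where MPC2 was lost, 5 without CTCFL-OE replicate 2 (17.3% of all genes), 6 without CTCFL-OE replicate 3 (4226 of all 18413 genes), and 4 in edgeR on the 2 groups alone (15.5% of all genes).

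Promoter sequences were looked at because the factor whose level was changed shares its DNA-binding zinc fingers with CTCF. RefSeq starts on GRCh38.p14 were matched for 46 of the 54 members, and the 250 bases before the start were searched on both strands. The CTCF and CTCFL core AGGGGGC was in 11 of 46 (23.9%), where 13.1% of all 27305 promoters held it. The E-box CACGTG was in 8 (17.4%, all promoters 6.49%), the NRF1 core GCGCATGCG in 1 (2.17%, all 1.78%) and the ATF4 element TGATGNAA in 1 (2.17%, all 3.19%). The full set of promoters was not limited to protein-coding genes, as the members are, nor matched to them in GC content. Enrichment of a motif was not tested. Among the 10 matched genes called in CTCFL-KD, the core was in SLC25A22, SLC25A40 and MTCH1, which has it on either strand. The E-box was in SLC25A13, SLC25A46 and MTCH1. The windows with these matches all hold annotated exons, and none belongs to a DEG. The stretches around 3 of these matches follow, from the gene's strand, with the match in capitals: the core of SLC25A22 at chr11:798386-798412 and of SLC25A40 at chr7:87876361-87876386, where it reads on the opposite strand, and the E-box of SLC25A13 at chr7:96322237-96322262, all on the minus strand.
SLC25A22: acccacggccAGGGGGCgggtgggcgc
SLC25A40: tgcgcgccccGCCCCCTcacgccgcc
SLC25A13: gcagcggggtCACGTGtccctgtcca
The promoter of SLC25A34, a DEG whose window holds no annotated exon, is shown whole for comparison (chr1:15736008-15736257, plus strand). None of the 4 motifs was in it, which says only that these letters are not in this window.
SLC25A34: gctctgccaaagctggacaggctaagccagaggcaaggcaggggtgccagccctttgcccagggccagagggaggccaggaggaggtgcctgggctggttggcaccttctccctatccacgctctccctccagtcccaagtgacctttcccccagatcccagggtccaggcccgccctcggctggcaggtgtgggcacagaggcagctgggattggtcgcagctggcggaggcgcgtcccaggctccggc

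The genes that work with the carriers were taken from lists; of all genes, 38.3% passed in CTCFL-KD and 16.9% were lower. Of 15 tested genes of carrier import, 1 fell in CTCFL-KD, the receptor TOMM70 (-0.61, adjusted p = 0.0171). Among enzymes that use or supply the carried metabolites, pyruvate carboxylase (PC) rose by 1.53 (adjusted p = 7.65e-05), and DLAT of the pyruvate dehydrogenase complex fell (-0.99, adjusted p = 0.00402). Of the 3 outer membrane channels, VDAC1 (-0.92, adjusted p = 0.00203) and VDAC2 (-0.68, adjusted p = 0.00971) fell. Of 7 regulators of mitochondrial biogenesis, 4 fell, with PPARGC1A (-1.41, adjusted p = 0.000294) and TFAM (-0.79, adjusted p = 0.0493) at one end and PPRC1 (-0.53, adjusted p = 0.0206) and NRF1 (-0.49, adjusted p = 0.0316) at the other. TFAM was at 41.5 CPM in CTCFL-KD replicate 1, against 83.5 and 94.8 in replicates 2 and 3. In CTCFL-OE the carnitine acetyltransferase CRAT fell (-0.86, adjusted p = 0.0771) and PPARGC1A rose (0.99, adjusted p = 0.0289).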

How the data were processed

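The authors deposited whole-number counts per gene, not normalized, from stranded poly(A) libraries sequenced in pairs. Their methods name Trimmomatic, STAR with GRCh38 and featureCounts; the submitters' notes also name kallisto. Strand use, annotation release and treatment of reads with several positions are not given in the sources used here. The 9 library files were identical to the matrix. GENCODE release 44 named 60419 identifiers. The 44 rows of Y copies were left out. Genes kept by filterByExpr (17742) were fitted with edgeR 4.0.16 (TMM, glmQLFit with robust estimation, group as the only factor, all 9 libraries) in R 4.3.3, and p-values were adjusted by Benjamini-Hochberg over all of them. The thresholds were 0.1 for CTCFL-OE and 0.05 otherwise. The SE is the log2 fold change divided by the root of F. The code was tested on simulated data. DESeq2 1.42.0, other scalings, filters, a length correction, replicate blocks and leaving out each library were alternatives. TPM first used the union of annotated exons; after these values were seen it was changed to the canonical transcript, because the union of MTCH1 came to 14126 bases. The planned length correction keeps the union, and the one with the canonical transcript was added after seeing the data.

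Same-numbered Control and CTCFL-KD libraries deviated together from their group means over 10291 genes (correlations 0.417, 0.220 and 0.310), and those of Control and CTCFL-OE did not in each pair (-0.047, 0.246 and -0.0432). Unlike numbers also gave positive values for Control replicate 3 with CTCFL-KD replicate 2 (0.194) and Control replicate 2 with CTCFL-KD replicate 3 (0.0827). The other unlike pairs of these groups were negative. Any pairing is read from the data, as the labels give only a number, and these values do not settle it. That the replicates are biological is stated in the authors' paper. Values in every library are given for DEGs with a mean of at least 1 CPM in a group, for 11 members named beforehand (SLC25A1, SLC25A3, SLC25A4, SLC25A5, SLC25A6, SLC25A13, SLC25A20, UCP2, MPC1, MPC2 and MTCH2) and for CTCFL; other members past the adjusted p were added after their values were seen. Proteins planned to be shown were not used here. Of the lists of carrier import, outer membrane channels and regulators the genes with the 2 largest and 2 smallest log2 fold changes among those past the adjusted p are named; other enzymes and the leukocyte markers are not reported here. The members and lists were chosen with earlier results of these data known.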

Additional observations from a re-analysis of the deposited data

How the results depend on the processing

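Over 23 alternatives, the calls of SLC25A13, SLC25A22, SLC25A24, SLC25A29 and SLC25A34 in CTCFL-KD held in all, and that of SLC25A48 in all 22 that tested it. Single carrier values were tallied for 32 pairs of gene and comparison only, so the tally does not hold all the changes of call given above. Of these 734 values, 673 stayed on their side of the threshold, 29 passed it, 32 lost it and none passed it with the opposite sign. In 28 a value not past the threshold changed sign. In CTCFL-OE, where 0 members passed, the count (and share of all genes, 3.2% before) was 1 with upper-quartile scaling (4.04%), 2 with no filter (4.01%), 1 with at least 10 counts in every library (3.61%), 2 with the length trend removed (6.02%), 3 with canonical lengths, added after seeing the data (8.82%), 7 in edgeR on the 2 groups (20.1%), 7 with the replicate block on the 2 groups (17.8%), 7 with the block and the length trend (21.9%), 3 in DESeq2 on 9 libraries (8.59%) and 8 on the 2 groups (23.6%); leaving out libraries gave 0 to 8 (0.24% to 27.4%). DEGs there were 1 in place of 0 with upper-quartile scaling, with 10 counts in every library, in edgeR or the block on the 2 groups, and in either DESeq2 fit (2.04% to 4.91% of all genes), and 0 to 1 without a library (0.24% to 6.44%). In CTCFL-KD the count of 11 was 6 to 20 without a library (25.8% to 49.9% of all genes), 16 with canonical lengths (45.1%) and 13 in each DESeq2 fit (42.5% and 42.4%). It was 12 with the length trend removed (42.4%), 10 with no filter (21.2%), and 11 to 12 with other scalings or at least 10 counts in every library (38.0% to 38.5%). With the replicate block on 9 libraries it was 10 (37.0%), where MPC2 passed and SLC25A12 and SLC25A46 did not. With the block on the 2 groups it was 8 (32.6%), where SLC25A12, SLC25A32 and MTCH1 did not pass. Of these only SLC25A32 passed there without the block. The 4 DEGs (23.2% of all genes) were 7 with the length trend removed (23.2%) and 7 with the block and that trend (22.3%), but 4 with canonical lengths (23.1%), and 4 to 6 without a library (20.0% to 24.7%). For CTCFL-KD against CTCFL-OE the count of 11 (26.9% of all genes) was 4 in edgeR on the 2 groups (15.5%), 2 with the block on them (11.5%), 3 with the block and the length trend (14.9%), 7 in DESeq2 on them (21.5%), and 5 to 17 without a library (17.3% to 39.7%). CTCFL itself ranged from 2.13 to 2.98 in CTCFL-OE and from -5.88 to -3.21 in CTCFL-KD without a library; it has no value with at least 10 counts in every library, nor for CTCFL-KD in fits of the 2 groups. No scaling moved the median of all genes by over 0.1. The cause of these changes was not tested. A floor of 3 counts is 0.1225 to 0.2093 CPM of the library total and covers counting error only, so members near it, such as SLC25A41 and SLC25A52, cannot show small differences.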

Other observations

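The matrix also held 49 pseudogenes of the family, of which 22 were at 0 in all libraries and 4 reached 10 counts in any library. Of 8 long noncoding genes named after members, SLC25A25-AS1 had the most counts, 167, 219 and 111 in Control, with 193, 332 and 258 for CTCFL-OE and with 103, 204 and 168 for CTCFL-KD, and passed in neither comparison (adjusted p = 0.137 for CTCFL-OE, 0.223 for CTCFL-KD, in edgeR's quasi-likelihood test). The repeated Y rows of the pseudoautosomal regions matched their X rows in every library for 29 of 31 pairs with counts, and the largest difference was 1 count.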
